A study of Mus musculus with 10 samples.

Results

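Peroxisomal genes were examined in forebrain RNA of 10 mouse embryos collected at E12.5 and profiled on 1 Affymetrix Mouse Gene array each. The set holds 29 genes of peroxisome assembly and of fatty acid oxidation inside the peroxisome, out of 19938 genes measured. A gene entered when the platform's gene table paired a probe set with that gene's symbol alone, and each of the 29 had 1 such probe set. In the 5 transgenic embryos (dtg in the titles) a constitutively active FoxO3 allele was driven by the CaMKIIa promoter, which is active in forebrain neurons. The 5 control embryos (stg) came from the same CD1/NMRI mixed background and the same stage, and the labels neither spell out dtg and stg nor say whether controls carry a transgene. Litters of 2 dams supplied the embryos, but the labels do not assign embryos to dams, and litter and group cannot be told apart where they coincide. The forebrain had been cut away from most of the thalamus, and the RNA came from one side of it.

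Peroxisomes are small organelles bounded by a single membrane that shorten very long and branched fatty acids, break down hydrogen peroxide and begin the synthesis of ether lipids such as plasmalogens. Their matrix proteins are made in the cytosol and imported by receptors that the peroxins (Pex genes) build, anchor and recycle. In the developing brain, defects of peroxisome assembly are known to disturb neuronal migration. The comparison asks which of these genes differ when active FoxO3, a transcription factor restrained by insulin signalling, is present.

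Among the peroxisomal genes Abcd2 was alone in passing the test, and it rose in transgenic forebrains by a log2 difference of 0.43 ± 0.067 (SE, n = 5 embryos per group), which is 1.35-fold. That is 1 of 29 members at an adjusted p below 0.05 in limma, against 0.105% of all genes in either direction and 0.0652% in the upward direction. None of the 29 fell. Without any 1 of the 5 transgenic embryos or of control embryos 1 to 3, no member passed, and over the 10 fits that left out an embryo the genes called numbered between 7, when transgenic embryo 1 was omitted, and 58, when control embryo 4 was, against 21 with all embryos. At an unadjusted p below 0.05 there were 2 members, Abcd2 and the peroxin gene Pex19, beside 7.58% of all genes. The members split into 14 higher and 15 lower in transgenic embryos, with a median log2 difference of -0.0045, compared with -0.0038 over all genes. The median absolute log2 difference was 0.05 in the members and 0.059 over all genes, and the median within-group SD was 0.11 and 0.12.

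**Figure D1:**
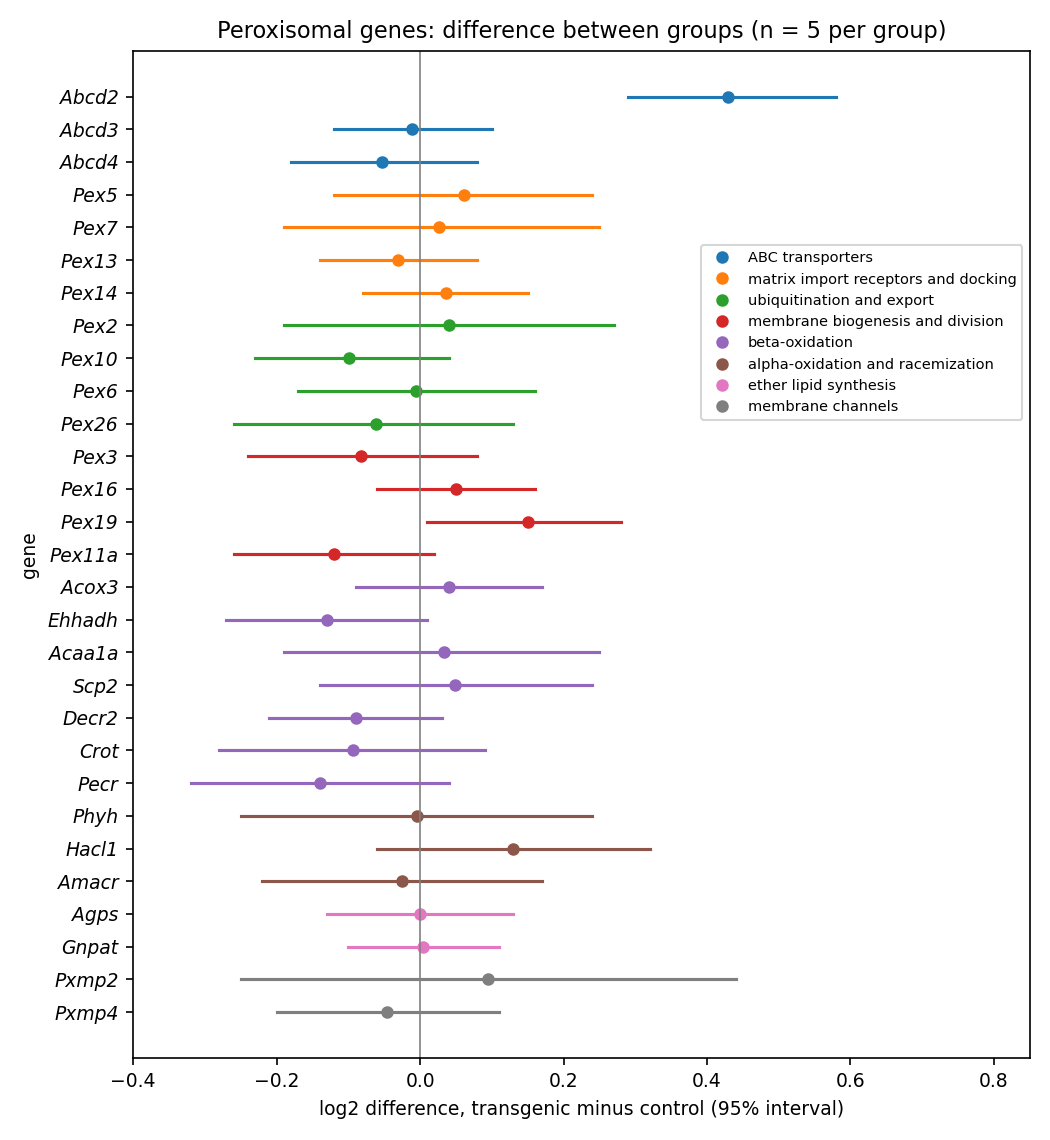
Log2 difference between transgenic and control embryos (horizontal axis, log2 scale) for each of the 29 peroxisomal genes, coloured by role; bars are 95% intervals from limma with n = 5 per group. Abcd2 lies at 0.43 with an interval from 0.29 to 0.58, and the other 28 lie between -0.14 and 0.15.

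The intervals are those of single genes, not adjusted for the number of genes, and do not show what the adjusted test could miss. That of Pex19, from 0.01 to 0.28, left out 0 although its limma adjusted p was 0.626. For 27 of the 28 genes other than Abcd2 the 95% interval left out a change as large as that of Abcd2 in either direction. The exception was Pxmp2. For 17 of the 28 it lay within 0.25 of 0 on the log2 scale. Interval half-widths ran from 0.102 in Gnpat to 0.344 in Pxmp2.

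Promoter windows were available for 23 of the 29 members in RefSeq (GRCm38.p6, from 250 bases before to 50 after a start), and Abcd2 was not among them. The windows of Acox3, an oxidase for branched fatty acids, and Scp2, which encodes a peroxisomal thiolase and a lipid carrier, are shown because they hold letters of the elements read by forkhead factors and nuclear receptors, while neither transcript passed the test. Capitals mark TGTTTA (forkhead core) and GGGCGG (GC box) in Acox3, and AGGTCA (nuclear receptor element) and GGGCGG in Scp2, on either strand, and neighbouring GC boxes may overlap or abut. The Acox3 window is chr5:35582784-35583083 on the plus strand and that of Scp2 is chr4:108118498-108118797 on the minus strand.
Acox3: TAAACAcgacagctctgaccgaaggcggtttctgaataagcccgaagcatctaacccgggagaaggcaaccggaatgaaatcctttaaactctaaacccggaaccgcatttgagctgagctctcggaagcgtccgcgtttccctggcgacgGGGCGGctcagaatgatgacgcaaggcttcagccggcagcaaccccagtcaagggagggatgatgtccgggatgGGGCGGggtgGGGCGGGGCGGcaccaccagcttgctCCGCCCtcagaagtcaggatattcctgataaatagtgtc
Scp2: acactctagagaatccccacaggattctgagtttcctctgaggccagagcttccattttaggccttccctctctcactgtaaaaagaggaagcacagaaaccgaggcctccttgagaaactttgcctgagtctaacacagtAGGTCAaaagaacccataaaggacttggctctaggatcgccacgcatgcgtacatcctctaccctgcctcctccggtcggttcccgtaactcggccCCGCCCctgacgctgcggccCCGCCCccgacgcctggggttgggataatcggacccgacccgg

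The full forkhead element TGTTTAC was found on neither strand in any of the 23 member windows, against 4.05% of the 27025 genes with a window. Its shorter core TGTTTA, contained in the former, was present in 1 member, Acox3 (4.35%), and in 15.1% of all genes. AGGTCA, a single nuclear receptor element, was present in Scp2 and Phyh, 8.7% of members against 18.1% of genes. GGGCGG, a GC box common at promoters of broadly used genes, was present in 19 of 23 member windows (82.6%) and in 38.2% of all genes. A gene counted when any of its windows matched. The shares of all genes cover every gene with a window, measured on the array or not, and were not matched to the members by expression level. These are matches of letters in a short window and say nothing of binding.

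The ABCD family encodes transporters that pair up in a membrane. ABCD2 carries very long and polyunsaturated acyl-CoA into the peroxisome. Abcd2 read 8.05, 8.10, 8.18, 8.11 and 8.20 in transgenic embryos 1 to 5 and 7.69, 7.65, 7.80, 7.82 and 7.51 in control embryos 1 to 5 (log2 intensity). The lowest transgenic embryo lay 0.22 above the highest control, and control embryo 5 was lowest. Complete separation upward occurred in 1 of 29 members and in 0.978% of all genes. The group means were 8.13 ± 0.062 and 7.70 ± 0.13 (SD, n = 5), with a limma adjusted p of 0.0374 and an exact two-sided permutation p of 0.00794, the smallest the design allows.

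**Figure D2:**
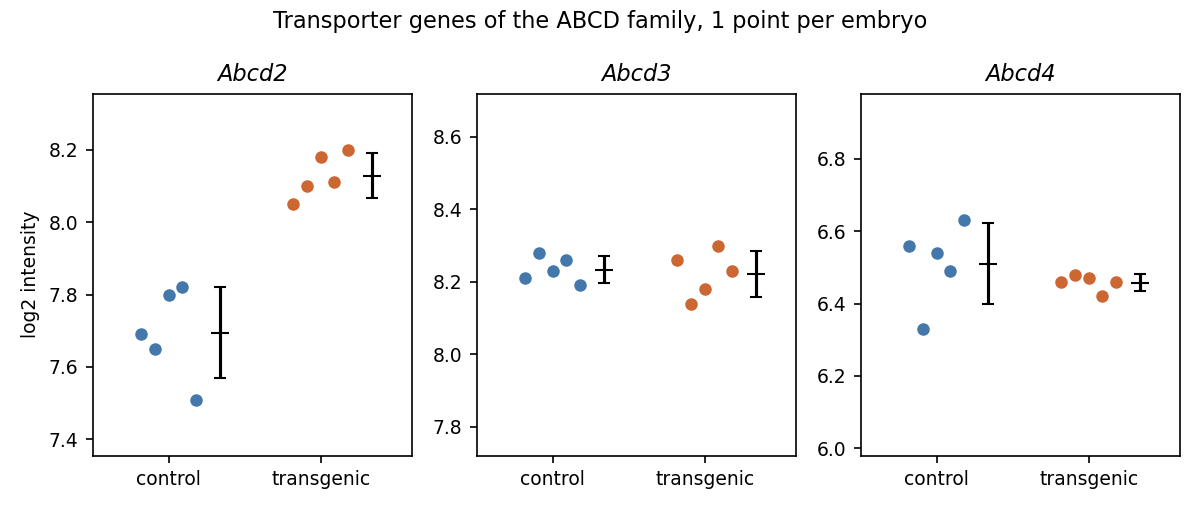
Log2 intensity of Abcd2, Abcd3 and Abcd4 (vertical axes, each spanning 1 log2 unit) in control and transgenic embryos; points are embryos and the bars beside them are the mean ± SD. In Abcd2 the transgenic embryos (8.05 to 8.20) lie above all controls (7.51 to 7.82), and in the other genes the groups overlap.

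Abcd3, whose product PMP70 carries branched and dicarboxylic acids, read 8.26, 8.14, 8.18, 8.30 and 8.23 in transgenic embryos 1 to 5 and 8.21, 8.28, 8.23, 8.26 and 8.19 in controls. All control values of Abcd3 lay inside the transgenic range, and the log2 difference was -0.011 (95% interval -0.12 to 0.10). Abcd4, which despite its name serves cobalamin export from lysosomes, read 6.46, 6.48, 6.47, 6.42 and 6.46 in transgenic embryos and 6.56, 6.33, 6.54, 6.49 and 6.63 in controls. All transgenic values of Abcd4 lay inside the control range, and the log2 difference was -0.053 (-0.18 to 0.08).

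The size of the Abcd2 rise was steady while its call was not. Leaving out 1 embryo at a time gave log2 differences from 0.38 to 0.46, but the adjusted p stayed below 0.05 in only 2 of these 10 limma fits, those without control embryo 4 (0.0255) and without control embryo 5 (0.0389), and ran from 0.0645 to 0.125 in the 8 others. Centring each array on its median also lost the call (log2 difference 0.42, adjusted p = 0.0569 in limma), as did testing all 35556 probe sets together (0.43, adjusted p = 0.104).

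Some marker lists of the tissue leaned in 1 direction between the groups, and others did not. Radial glia genes split into 5 higher and 5 lower, mesenchyme genes into 3 and 5, and endothelial genes into 2 and 4. Yet 3 of the 10 radial glia genes had an unadjusted p below 0.05, against 7.58% of all genes. They were Id4 at -0.33, Ddah1 at -0.47 and Pax6 at 0.22, and 0 of the 10 passed in limma. The groups did not overlap in Id4, nor in 319 of all 19938 genes. In the mesenchyme and endothelial lists 0 genes had an unadjusted p below 0.05. Of 15 pan-neuronal markers 14 were higher in transgenic embryos, with a list mean from 8.39 to 8.95 in transgenic and from 7.48 to 8.68 in control embryos, the lowest being control embryo 5. All 7 thalamus genes were higher (list mean 6.89 to 7.85 against 5.72 to 7.27), and all 10 S-phase and G2/M genes were lower (8.14 to 8.61 against 8.55 to 8.73). No gene of the pan-neuronal, thalamus, or S-phase and G2/M list passed the limma test, although 0, 6 and 6 of them had an unadjusted p below 0.05. Of 6 intermediate progenitor genes 5 were higher, and Eomes was lower at -0.58. All 5 microglia genes were higher, by 0.05 to 0.13. In limma 0 genes of these 2 lists passed, while 4 of the 6 and 0 of the 5 had an unadjusted p below 0.05. Without control embryo 5 the list differences were 0.093 (from 0.32) for pan-neuronal and 0.95 (from 1.1) for thalamus genes. For S-phase and G2/M genes the difference was then -0.19 (from -0.22), and Abcd2 differed by 0.38. The thalamus mean of control embryos 1 to 5 was 6.05, 5.96, 6.90, 7.27 and 5.72, which ranks them as Abcd2 does. In transgenic embryos it was 7.67, 7.72, 7.85, 6.89 and 7.33, not in the order of Abcd2. These orders were compared after the values were seen. The part of these tissue features in the Abcd2 difference was not tested. In tissue RNA, a change in the number of cells that express a gene and a change in RNA per cell cannot be told apart.

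The label forebrain was checked against Emx1, Emx2, Lhx2, Dlx1 and Dlx2. Their mean ran from 7.48 to 7.82 in transgenic and from 7.17 to 8.30 in control embryos. All 5 were lower in transgenic embryos, with a median log2 difference of -0.26. The genes did not move together across embryos. Control embryo 5, with the lowest mean, was the highest embryo in Emx1 (7.90), Emx2 (8.08) and Lhx2 (9.95). It was the lowest in Dlx1 (4.82) and Dlx2 (5.11), whose control SDs were 2.0 and 1.4. Choroid plexus genes were higher in 3 of 4 cases (list mean 7.48 to 8.16 against 6.03 to 8.12), with Otx2 at 0.87 and its groups not overlapping. The other 2, Ttr and Clic6, were lowest in control embryo 2 (6.48 and 5.08), and their transgenic values lay inside the control range. All 5 erythroid genes were lower (7.71 to 8.85 against 7.69 to 9.42). The 4 liver genes, also all lower, averaged 3.83 to 4.21 in 9 embryos and 4.95 in control embryo 2. None of the genes in these 4 lists passed the limma test, although 1 forebrain and 1 choroid plexus gene had an unadjusted p below 0.05, and the part of these lists in the Abcd2 difference was not tested. Control embryo 5 stood apart with a mesenchyme mean of 8.64, against 6.49 to 7.58 elsewhere. The Foxo3 probe set differed by 0.34 (limma adjusted p = 0.218), from probes that may not cover the transgene.

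On chromosome 15, the 3 measured genes on either side of Abcd2 in RefSeq order did not pass. Their log2 differences were 0.09 for Alg10b, 0.18 for Cpne8, 0.19 for Kif21a, -0.15 for Slc2a13, -0.047 for Lrrk2 and -0.028 for Smgc.

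Import of matrix proteins begins with the receptors PEX5 and PEX7, which recognise different targeting signals and dock at a complex of PEX13 and PEX14. None of these 4 genes passed, and all differed by less than 0.1. Pex5 read 7.30, 7.07, 7.19, 7.04 and 7.15 in transgenic embryos 1 to 5 and 7.24, 7.27, 7.0, 7.04 and 6.90 in controls, a log2 difference of 0.061 (95% interval -0.12 to 0.24). The groups overlapped, and control embryo 5 was again lowest. Pex14 read 6.79, 6.77, 6.89, 6.74 and 6.76 against 6.76, 6.79, 6.73, 6.67 and 6.81, with a difference of 0.036 (-0.08 to 0.15). For Pex13 the values were 7.78, 7.74, 7.74, 7.77 and 7.77 in transgenic and 7.86, 7.76, 7.69, 7.81 and 7.84 in control embryos, with a difference of -0.031 (-0.14 to 0.08). The transgenic embryos differed from each other by an SD of 0.017 in Pex13, the lowest spread of any member in either group. Pex7 differed by 0.027 (-0.19 to 0.25).

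After delivering its cargo PEX5 is tagged with ubiquitin by a complex that includes PEX2 and PEX10, and is then pulled out of the membrane by an ATPase complex with PEX6, which PEX26 anchors. None of these 4 genes passed. Pex10 read 5.88, 5.82, 5.96, 6.05 and 5.99 in transgenic and 6.14, 6.05, 5.92, 6.08 and 6.0 in control embryos, a log2 difference of -0.099 (95% interval -0.23 to 0.04). Transgenic embryos 1 and 2 lay below all controls and the rest within their range. Pex26 read 5.13, 5.28, 5.24, 4.88 and 4.96 against 5.01, 5.31, 5.23, 5.05 and 5.21, with a difference of -0.062 (-0.26 to 0.13). Pex2 read 6.70, 6.78, 6.63, 7.10 and 6.97 against 6.62, 6.81, 6.60, 6.99 and 6.95, with a difference of 0.041 (-0.19 to 0.27). In both groups of Pex2 the high values belonged to embryos 4 and 5. Pex6 differed by -0.0052 (-0.17 to 0.16).

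Membrane proteins reach the peroxisome through PEX19, a cytosolic chaperone, and its membrane dock PEX3, with PEX16 acting upstream; PEX11 proteins shape the membrane for division. Pex19 read 7.85, 7.68, 7.68, 7.77 and 7.85 in transgenic embryos and 7.59, 7.56, 7.64, 7.76 and 7.54 in controls. Transgenic embryos 1, 4 and 5 lay above all controls, while control embryo 4 reached into the transgenic range. The log2 difference of Pex19 was 0.15 ± 0.061 (SE), with an exact two-sided permutation p of 0.0397 (n = 5 per group), but its limma p adjusted over all genes was 0.626.

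Pex11a, which responds to PPAR alpha in liver, read 5.16, 5.15, 5.10, 5.28 and 5.18 in transgenic and 5.31, 5.19, 5.16, 5.42 and 5.38 in control embryos, a log2 difference of -0.12 (95% interval -0.26 to 0.02). Only transgenic embryos 2 and 3 lay below every control. Pex3 read 7.33, 7.20, 7.20, 7.26 and 7.41 against 7.29, 7.47, 7.15, 7.48 and 7.42, a difference of -0.083 (-0.24 to 0.08), with the transgenic values inside the control range. Pex16 differed by 0.05 (-0.06 to 0.16). These 4 genes therefore gave differences of both signs, and none passed.

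**Figure D3:**
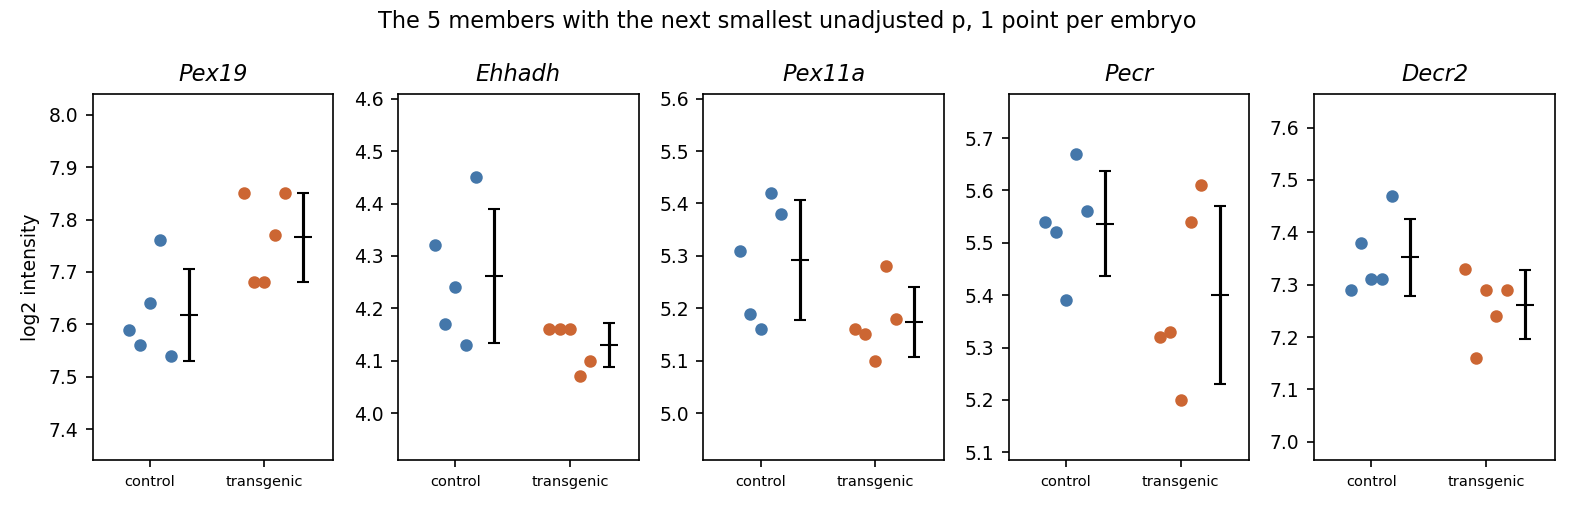
Log2 intensity (vertical axes) of the 5 peroxisomal genes that follow Abcd2 in order of unadjusted p, in control and transgenic embryos; points are embryos and the bars beside them are the mean ± SD. The groups overlap in each of the 5, and Pex19 is the one whose transgenic mean (7.76) exceeds the control mean (7.62).

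The 7 enzymes of peroxisomal beta-oxidation and adjoining steps of fatty acid metabolism gave 3 higher and 4 lower values, with a median log2 difference of -0.089 and none past the test. Ehhadh, the bifunctional enzyme of hydration and dehydrogenation, read 4.16, 4.16, 4.16, 4.07 and 4.10 in transgenic embryos and 4.32, 4.17, 4.24, 4.13 and 4.45 in controls. The transgenic values were closely spaced and control embryos 1 and 5 highest, but control embryo 4 lay among the transgenic ones (log2 difference -0.13, 95% interval -0.27 to 0.01). Ehhadh, Pex26, Pex11a, Amacr and Pxmp2 averaged below the lowest array median of 5.36, and the table gives no background level by which to judge them.

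Pecr, an enoyl-CoA reductase of chain elongation, read 5.32, 5.33, 5.20, 5.54 and 5.61 in transgenic and 5.54, 5.52, 5.39, 5.67 and 5.56 in control embryos. Transgenic embryos 1 to 3 lay below all controls and embryos 4 and 5 within their range, a log2 difference of -0.14 (95% interval -0.32 to 0.04). Decr2, a dienoyl-CoA reductase for unsaturated fatty acids, read 7.33, 7.16, 7.29, 7.24 and 7.29 against 7.29, 7.38, 7.31, 7.31 and 7.47. Before rounding, 4 of 5 transgenic embryos lay below all controls, and the difference was -0.089 (-0.21 to 0.03). Crot, which makes medium-chain acyl-carnitines for export to mitochondria, differed by -0.094 (-0.28 to 0.09).

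Among the remaining enzymes Acox3 differed by 0.04 (95% interval -0.09 to 0.17) and Scp2 by 0.049 (-0.14 to 0.24). Acaa1a, the thiolase of the last step, differed by 0.033 (-0.19 to 0.25). It has a near-identical copy, Acaa1b, so its probe set may read both genes.

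Alpha-oxidation removes a carbon from branched acids such as phytanic acid before beta-oxidation can act. Hacl1, the lyase of this pathway, read 6.24, 6.13, 6.10, 6.47 and 6.29 in transgenic and 6.01, 5.96, 6.16, 6.11 and 6.36 in control embryos, a log2 difference of 0.13 (95% interval -0.06 to 0.32). The groups overlapped, transgenic embryo 4 being the highest. Phyh, the hydroxylase of the first step, read 6.85, 6.96, 6.73, 6.96 and 7.06 against 7.12, 6.58, 6.71, 7.06 and 7.12, with a difference of -0.0045 (-0.25 to 0.24). The Phyh controls spread widely, from 6.58 to 7.12, and enclosed every transgenic value. Amacr, a racemase that prepares branched acids for oxidation, read 5.05, 5.31, 5.34, 5.0 and 5.14 against 5.21, 5.40, 5.23, 5.04 and 5.08, with a difference of -0.025 (-0.22 to 0.17). No gene of this pathway passed.

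Ether lipid synthesis, which supplies plasmalogens to neuronal and myelin membranes, starts with GNPAT and AGPS. Gnpat read 8.98, 9.01, 9.01, 9.08 and 8.94 in transgenic and 9.0, 8.97, 8.99, 9.03 and 9.01 in control embryos, a log2 difference of 0.0037 (95% interval -0.10 to 0.11). Agps read 7.78, 7.86, 7.79, 7.94 and 7.96 against 7.84, 7.83, 7.77, 7.89 and 8.0, with a difference of 9e-05 (-0.13 to 0.13). Group means of both genes thus lay far closer together than the embryos within a group.

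The membrane proteins gave the widest interval. Pxmp2, a channel for small solutes, read 4.90, 4.88, 4.58, 5.29 and 4.90 in transgenic and 4.55, 4.95, 4.44, 4.88 and 5.26 in control embryos, a log2 difference of 0.095 (95% interval -0.25 to 0.44). Its highest embryos were transgenic embryo 4 and control embryo 5. Pxmp4 read 6.19, 6.06, 6.02, 6.02 and 5.86 against 6.05, 5.97, 6.01, 6.19 and 6.18, with a difference of -0.046 (-0.20 to 0.11).

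Part of the spread within groups followed the embryo number in the titles. In Pex7, Pex2, Pecr and Agps embryos 4 and 5 of both groups lay above embryos 1 to 3 of both groups. That is 4 of 29 members (13.8%), and 0 were separated downward. Of all 19938 genes 364 were separated upward and 377 downward, 3.72% in either direction. The split was chosen after these values were seen, so the member count is no test of it. For Pex7, embryos 4 and 5 exceeded embryos 1 to 3 by 0.32 on the log2 scale in the transgenic group and by 0.21 in the controls. In Pex2 the same differences were 0.33 and 0.30, and in Agps 0.14 and 0.13. The labels do not say what the numbers stand for. Abcd2 was higher in transgenic embryos by 0.39 among embryos 1 to 3 and by 0.49 among embryos 4 and 5. With this split as a term in the limma fit, chosen after the values were seen, Abcd2 differed by 0.43 (adjusted p = 0.0479).

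**Figure D4:**
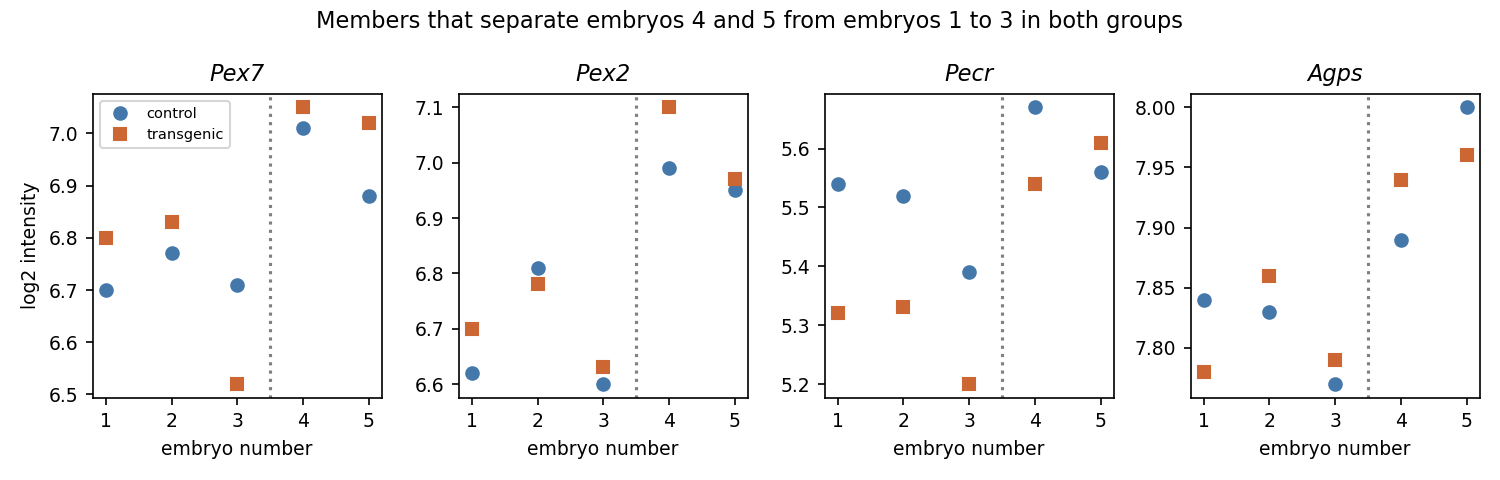
Log2 intensity (vertical axes) of Pex7, Pex2, Pecr and Agps against the embryo number in the titles (horizontal axes), with controls as circles and transgenic embryos as squares. To the right of the dotted line, embryos 4 and 5 of both groups lie above embryos 1 to 3, for example from 6.95 to 7.10 against 6.60 to 6.81 in Pex2.

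Other genes of the peroxisome gave the same picture of small differences in both directions. Of 60 further genes listed, 52 had a probe set of their own, 25 were higher and 27 lower, with a median log2 difference of -0.018. In limma 0 of the 52 passed, and 2 had an unadjusted p below 0.05. These were Dhrs4, a carbonyl reductase, at -0.28 ± 0.089 (SE, adjusted p = 0.443 in limma), and Slc27a2, a very-long-chain acyl-CoA synthetase, at 0.19 ± 0.078 (adjusted p = 0.606 in limma). Next by unadjusted p were the glutathione transferase gene Gstk1 at -0.21, the thioesterase gene Acot5 at -0.13, Pex11g at -0.13 and Zadh2 at -0.13.

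Mitochondrial beta-oxidation takes over where peroxisomal shortening ends. Of its 19 measured genes 5 were higher and 14 lower, with a median log2 difference of -0.073; 0 passed in limma and 1 had an unadjusted p below 0.05. That gene was the isomerase gene Eci1 at -0.17 ± 0.075 (SE), followed by the electron carrier gene Etfa at -0.14 and the thiolase gene Acaa2 at -0.19. Very-long-chain synthesis produces the substrates of ABCD2, and of its 15 genes 8 were higher and 7 lower, with a median of 0.012. Again 0 passed in limma and 1, the elongase gene Elovl7 at -0.23 ± 0.088, had an unadjusted p below 0.05. Elovl2 at -0.14 and Elovl4 at 0.11 came next. Of 8 genes for PPAR and RXR receptors and their coactivators 6 were higher and 2 lower, and 0 passed in limma or had an unadjusted p below 0.05.

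**Figure D5:**
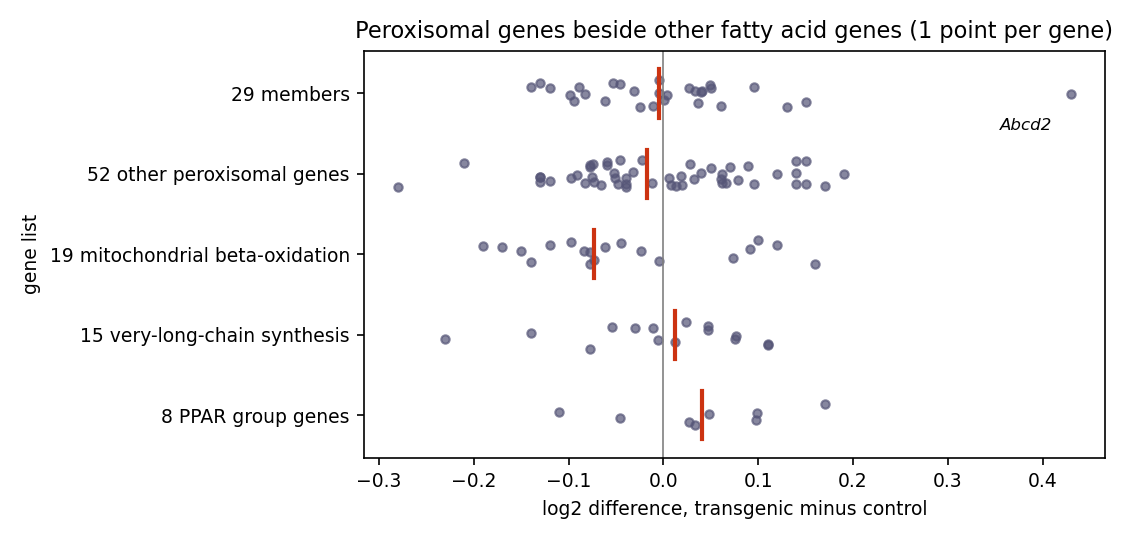
Log2 difference between transgenic and control embryos (horizontal axis) for the 29 peroxisomal genes and 4 neighbouring gene lists; each point is a gene and each red bar a list median. Abcd2, at 0.43, is the highest value of all 5 lists, and the medians run from -0.073 to 0.04.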

How the data were processed

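Biotin-labelled sense-strand target of each embryo went onto its own array, as the labels' protocols state. The deposited values are log2 intensities, and the submitters' processing notes name Affymetrix Expression Console as the authors' tool; version, algorithm and build are not given in the sources used here. Array medians lay between 5.36 and 5.39, and no further normalization was applied. Of 35556 probe sets, 21789 named 1 gene, 1621 several and 12146 none; symbols were updated through gene identifiers (RefSeq, GRCm38.p6). Each of 19938 genes was read from its probe set with the highest mean.

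The groups were fitted with limma 3.58.1 (R 4.3.3) with group as its single term, moderated variances, two-sided tests and a Benjamini-Hochberg adjusted p below 0.05 across all genes. Nothing states that embryos are independent of litter, so p-values measure the spread between these 10 samples. In simulated data for this comparison (5 runs, 200 of 19938 genes changed, independent normal noise) 78.4% of changes of 0.5 and 96.6% of changes of 1 on the log2 scale were recovered. The real comparison called 21 genes, and its noise need not be independent between genes, so these shares may not carry over to it.

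Members and lists were chosen with earlier results of these data known. Values of all embryos are given for up to 3 members per role with the smallest unadjusted p, and up to 6 further peroxisomal and 3 genes of the mitochondrial and elongation lists are named by the same order. Alternatives were a replicate block, leaving out each embryo, quantile normalization, median centring, array weights, trend and robust variances, a filter on dim genes (percentile 40 of gene means), probe sets averaged per gene, all probe sets, a threshold of 0.1 and, added later, a term for embryo numbers.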

Additional observations from a re-analysis of the deposited data

Results flagged for a closer look

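Of 58 groups of 5 embryos tested over the 29 members, 1 held an embryo far from the others by Dixon's ratio, a test that chance meets in about 1 of 20 groups. In Pex16 control embryo 3 read 6.84, while the other controls read 6.95 to 6.97.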

How the results depend on the processing

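The Abcd2 difference lay between 0.38 and 0.46 in all 19 alternatives and passed in 8 of them. Its sign could not change on leaving out 1 embryo, because the groups did not overlap. The replicate block, the term for embryo numbers, and trend and robust variances left the difference itself unchanged by construction. So did the filter on dim genes, the probe set average and the fit of all probe sets. Leaving out 1 embryo gave 0 or 1 members and 7 to 58 genes past the threshold (7 without transgenic embryo 1, 58 without control embryo 4), against 1 and 21 in the main comparison. Genes past it numbered 39 with array weights, 9 with all probe sets and 55 at a threshold of 0.1; members numbered 0 with median centring (Abcd2 at 0.42, adjusted p = 0.0569) and 0 with all probe sets (0.43, adjusted p = 0.104), where more rows are tested. With the replicate number as a block 2 genes and 0 members passed (Abcd2 at 0.43, adjusted p = 0.18). The numbers are not known to pair embryos: same-numbered deviations correlated from -0.25 to 0.24, and 0 of 5 transgenic embryos correlated best with their own number. The cause of these lost calls was not tested, except that leaving out an embryo leaves fewer samples. The 28 other members passed in no alternative run. Of the 29, 18 kept their sign throughout and 11, all with a difference of at most 0.095, did not. Leaving out 1 embryo gave -0.031 to 0.0096 for Abcd3, -0.025 to 0.11 for Pex7, -0.026 to 0.093 for Pex2, -0.053 to 0.027 for Pex6, -0.03 to 0.10 for Acaa1a, -0.01 to 0.11 for Scp2, -0.089 to 0.047 for Phyh, -0.068 to 0.028 for Amacr, -0.023 to 0.033 for Agps, -0.016 to 0.019 for Gnpat and -0.00077 to 0.21 for Pxmp2. Array weights turned Phyh to 0.031, and median centring turned Agps to -0.013 and Gnpat to -0.0092. Ehhadh and Pxmp2 had no value without dim genes. The number of arrays limits the precision.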
